A study of Mus musculus with 16 samples.

Results

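The contrast between pericytes and endothelial cells was measured in wild-type tumours, on 4 pericyte and 4 endothelial bead arrays out of a series of 16. The groups were taken from the sample labels, so no measured value chose the arrays. Differences were read as pericytes minus endothelial cells for 10426 genes, each represented by 1 of the 24040 probes in the authors' normalized table. The tumours were orthotopic 67NR mammary carcinomas, seeded in the 4th fat pad of female hosts 6 to 8 weeks old. They were left for 2 to 4 weeks and reached 10 mm on average. Hosts of both groups were BALB/c mice with the Ub-GFP transgene, which labels host cells in general, and were wild type for endosialin (Cd248), a membrane glycoprotein of mural cells and fibroblasts. The other 8 arrays are pericytes and endothelial cells of endosialin-knockout hosts, and they enter here for the shared estimate of spread and for 1 comparison. Cells were sorted by flow cytometry and used without culture. Neither the gate markers nor the number of animals behind an array is given in the sources used here. The p-values therefore cover the spread between the deposited arrays, which may be technical.

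Endothelial cells form the inner lining of vessels, where their junctions set permeability and their surface meets the blood. Pericytes are mural cells that lie under the basement membrane of capillaries and small venules. They are recruited by platelet-derived growth factor B that endothelium releases and that the pericyte receptor PDGFRB binds. In tumours they are often loosely attached, and they share many transcripts with fibroblasts and smooth muscle cells, so no single marker sets them apart.

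The 2 populations differed widely. In all, 3772 genes (36.2%) passed the threshold (limma, Benjamini-Hochberg adjusted p under 0.05), 1785 (17.1%) higher and 1987 (19.1%) lower in pericytes. By 2-fold or more 920 genes (8.82%) differed, 523 (5.02%) higher and 397 (3.81%) lower. The largest differences lay on the pericyte side: 49 genes were at least 8-fold higher and 15 at least 8-fold lower, and at 16-fold the counts were 12 and 2. In 3498 genes (33.6%) the 4 arrays of one population all lay above the 4 of the other, 1701 (16.3%) with pericytes above and 1797 (17.2%) with endothelial cells above. The median difference over all tested genes was -0.03. Array medians lay between 7.18 and 7.21 on the log2 scale and single values reached 14.5. Values near 7 lie at the low end of the scale, called the floor below, and how far differences are compressed there was not tested. Of the 523 genes at least 2-fold higher in pericytes, 336 lay at or below the array median on all 4 endothelial arrays, and of the 397 lower genes 166 did so on all 4 pericyte arrays. Endothelial arrays were the more alike, with correlations across genes of 0.958 to 0.979 against 0.916 to 0.961 among pericyte arrays, and 0.695 to 0.784 between the populations. The median SD per gene was 0.132 in endothelial cells and 0.165 in pericytes. Each array holds RNA of many cells, so fewer cells of a type cannot be told apart from less RNA per cell. Below, a single signed value beside a gene is its log2 difference, negative where pericytes were lower, and genes called higher or lower passed the threshold. Counts over gene lists are to be read against the shares over all tested genes, 17.1% higher and 19.1% lower.

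Genes of the interstitial matrix led the pericyte side. Col3a1, the chain of type III collagen, read 12.25, 12.15, 12.17 and 11.52 in wild-type pericyte replicates 1 to 4 and 6.79, 7.02, 7.03 and 6.91 in the endothelial replicates. Pericyte arrays stood far above endothelial arrays, and pericyte replicate 4 stood below the other 3 (33.9-fold, log2 difference 5.08, SE 0.15, limma, adjusted p = 1.16e-14). The other 14 of the 15 largest among genes with an established name were Rarres2, which encodes the chemoattractant precursor chemerin, Serpine2, a thrombin and plasminogen activator inhibitor, the proteoglycan genes Dcn and Bgn, and the collagen chains Col5a1, Col1a1, Col6a2 and Col6a3. With them came Thy1, a surface glycoprotein of fibroblasts and mural cells, Cpxm1, a carboxypeptidase-like secreted protein, Lpl, the lipase that clears plasma triglyceride, the eosinophil attractant Ccl11, Cd248 and Serpinf1, which encodes the anti-angiogenic serpin PEDF. Their differences ran from 3.93 for Serpinf1 to 4.71 for Rarres2. Serpine2 read 11.44, 11.86, 11.79 and 11.32 in the pericyte arrays and 7.23, 7.04, 7.31 and 7.33 in the endothelial arrays. Thy1 was the steadiest of the 15 within pericytes, at 11.37, 11.28, 11.37 and 11.31 against 7.01, 6.82, 7.23 and 7.45.

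On the endothelial side the tight junction gene Cldn5 led. It read 6.76, 6.82, 6.76 and 6.96 in the pericyte arrays and 11.09, 11.24, 10.86 and 10.97 in the endothelial arrays, an 18.6-fold difference (log2 difference -4.21, SE 0.11, limma, adjusted p = 3.26e-15). Robo4, an endothelial receptor of the Roundabout family that stabilises vessels, stood at 6.82, 6.78, 6.75 and 7.12 and 11.02, 10.98, 10.80 and 10.97 (log2 difference -4.07, SE 0.10, limma, adjusted p = 1.79e-15). Both genes sat at the floor of the scale in every pericyte array. The rest of the 15 lowest in pericytes were Igfbp3, an insulin-like growth factor carrier, the adhesion receptor Pecam1, the secreted angiogenic factor Egfl7, the proteoglycan Esm1, Gpihbp1, which anchors lipoprotein lipase in capillaries, the C-type lectin-like receptor Cd93, the scaffold gene Lmo7, VE-cadherin (Cdh5), the apelin receptor Aplnr, the water channel Aqp1, the transcriptional repressor Bcl6b, Trp53i11 and the chemokine receptor Cxcr4. Their differences ran from -3.88 for Igfbp3 to -2.98 for Cxcr4. Igfbp3 and Aqp1 stood well above the floor in pericytes and varied there: Igfbp3 read 9.36, 8.28, 7.99 and 8.69 in the pericyte arrays and 12.63, 12.39, 12.29 and 12.52 in the endothelial arrays.

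The promoter windows of the genes with the largest differences that have an entry in the RefSeq promoter table, 2 on each side, are shown because they belong to the transcripts that parted the populations furthest. Each window covers 300 bases on GRCm38.p6, from 250 bases before to 50 after the gene's start, on the gene's own strand and 5′ to 3′. Capitals mark GGAA or its reverse complement TTCC, the core that ETS factors, a family with several endothelial members, can bind. Col3a1 lies at chr1:45311288-45311587 on the plus strand, Serpine2 at chr1:79858616-79858915 on the minus strand, Cldn5 at chr16:18776597-18776896 on the plus strand and Robo4 at chr9:37401722-37402021 on the plus strand.
Col3a1: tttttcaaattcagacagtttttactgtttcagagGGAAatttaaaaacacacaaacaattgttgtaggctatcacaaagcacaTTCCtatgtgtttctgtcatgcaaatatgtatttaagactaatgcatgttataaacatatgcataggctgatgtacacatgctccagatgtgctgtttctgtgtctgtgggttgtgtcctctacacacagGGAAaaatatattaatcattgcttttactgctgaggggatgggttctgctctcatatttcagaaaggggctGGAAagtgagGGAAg
Serpine2: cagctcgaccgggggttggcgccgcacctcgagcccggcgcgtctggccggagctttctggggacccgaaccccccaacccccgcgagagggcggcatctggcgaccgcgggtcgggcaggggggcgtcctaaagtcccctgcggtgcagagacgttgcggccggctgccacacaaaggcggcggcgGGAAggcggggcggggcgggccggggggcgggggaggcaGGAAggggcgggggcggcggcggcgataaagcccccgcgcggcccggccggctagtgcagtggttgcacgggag
Cldn5: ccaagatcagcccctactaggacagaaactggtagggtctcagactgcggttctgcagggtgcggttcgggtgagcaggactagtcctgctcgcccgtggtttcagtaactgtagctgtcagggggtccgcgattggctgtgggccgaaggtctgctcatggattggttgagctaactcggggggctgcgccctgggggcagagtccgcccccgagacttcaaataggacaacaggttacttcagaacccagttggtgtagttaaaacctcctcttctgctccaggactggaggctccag
Robo4: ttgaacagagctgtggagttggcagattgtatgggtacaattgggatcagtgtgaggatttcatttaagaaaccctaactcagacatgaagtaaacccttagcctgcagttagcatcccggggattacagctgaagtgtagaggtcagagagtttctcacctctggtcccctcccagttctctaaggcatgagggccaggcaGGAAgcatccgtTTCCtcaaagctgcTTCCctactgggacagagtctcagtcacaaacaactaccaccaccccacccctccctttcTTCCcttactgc

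The core was found 5 times in Col3a1, 2 times in Serpine2, 0 times in Cldn5 and 4 times in Robo4. At least 1 core was held by 96.0% of all 32851 RefSeq windows, the median was 3, and 28.6% held 5 or more. The pericyte gene Col3a1 held more of these letters than the endothelial gene Cldn5, and the endothelial gene Robo4 held more than the pericyte gene Serpine2. TATAAA, on either strand, was found 1 time in Col3a1 and 0 times in the other 3, against 13.6% of all windows with a match. CCAAT or its reverse ATTGG was found 2 times in Cldn5, 1 time in Robo4 and 0 times in the pericyte genes, against 37.4% of all windows. ACAAT or its reverse ATTGT, a core that SOX factors can bind and that shares 4 letters with CCAAT, was found 2 times each in Col3a1 and Robo4 and 0 times in the others, against 31.0%. Base composition differed as well, with 77.7% G and C in Serpine2, 58.3% in Cldn5, 50.3% in Robo4 and 37.7% in Col3a1, where the median window has 52.7%. A match is a run of letters and not a binding site. Of the 10426 tested genes 8697 were matched to RefSeq and 66.0% have a window, and motif shares were not compared between groups of genes.

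The sort labels were checked against marker genes. Of 26 listed pericyte markers 25 are on the array and 22 were tested, of which 18 were higher and 2 lower in pericytes, with a median difference of 1.39. With no filter on low values 20 of the 25 were higher and 2 lower. Cd248 read 11.19, 10.75, 10.85 and 11.12 in the pericyte arrays and 6.96, 6.92, 6.94 and 7.33 in the endothelial arrays (15.4-fold, log2 difference 3.94, SE 0.12, limma, adjusted p = 1.96e-14). Rgs5, a regulator of G protein signalling that marks tumour pericytes, was high in pericytes and above the floor in endothelium, at 11.81, 11.32, 11.03 and 12.43 against 7.80, 8.14, 8.55 and 9.31 (log2 difference 3.20, SE 0.28, limma, adjusted p = 3.51e-08). Pdgfrb, the receptor for which pericytes are named most often, read 8.03, 7.92, 8.11 and 8.40 and 6.79, 6.77, 6.79 and 6.77 (log2 difference 1.33, SE 0.10, limma, adjusted p = 2.09e-09). The intermediate filament gene Des was 4.26-fold higher and the chondroitin sulfate proteoglycan NG2 (Cspg4) 2.27-fold higher. Ednra, the endothelin receptor of mural cells, differed by 2.78, Gucy1a3, a subunit of the nitric oxide receptor guanylate cyclase, by 1.87 and Rgs4 by 2.20. The members that did not pass were Kcnj8 (0.02, limma, adjusted p = 0.976) and Abcc9 (0.27, limma, adjusted p = 0.573), the 2 parts of a mural potassium channel. Their groups overlapped, and both were named after their values were seen.

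Mcam, which encodes the adhesion molecule CD146 and is used as a pericyte marker, was lower in pericytes. It read 10.47, 9.19, 9.24 and 10.91 in the pericyte arrays and 11.20, 11.22, 11.15 and 11.34 in the endothelial arrays (log2 difference -1.27, SE 0.27, limma, adjusted p = 9.66e-04), so it was well above the floor in both populations and, within pericytes, higher in replicates 1 and 4. Nt5e, the ectonucleotidase CD73, was lower as well, at -1.16, and sat at the floor in pericytes at 6.86, 6.97, 6.75 and 6.80.

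**Figure D1:**
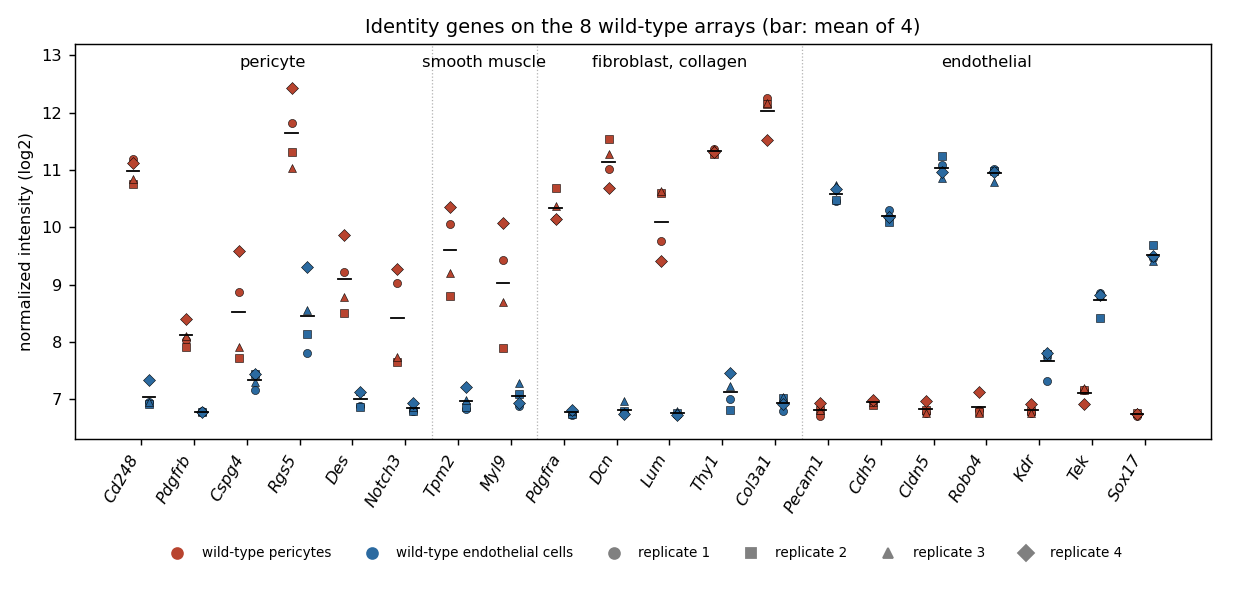
Normalized log2 intensity (vertical axis) of 20 identity genes on each of the 8 wild-type arrays, with pericyte arrays in red, endothelial arrays in blue, a marker shape for each replicate and a bar at the mean of 4. Endothelial genes sat near 7 on the pericyte arrays, and Cspg4, Rgs5, Des, Notch3, Tpm2 and Myl9 were higher in pericyte replicates 1 and 4 than in 2 and 3.

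Fibroblast markers were higher in the same sort. Of 26 listed, 24 are on the array and 23 were tested, of which 22 were higher and 1 lower, with a median of 2.77. Pdgfra, the PDGF receptor by which fibroblasts are often told from pericytes, read 10.15, 10.68, 10.37 and 10.14 in the pericyte arrays and 6.73, 6.73, 6.79 and 6.81 in the endothelial arrays (log2 difference 3.57, SE 0.11, limma, adjusted p = 2.58e-14). The proteoglycan Lum stood at 9.76, 10.60, 10.63 and 9.41 against 6.73, 6.76, 6.80 and 6.72. The cytoglobin gene Cygb differed by 3.62, Prrx1, a homeobox gene of mesenchyme, by 2.77 and periostin (Postn) by 3.08. Cd34, which fibroblasts and capillaries both make, was the 1 lower member (log2 difference -0.70, SE 0.14, limma, adjusted p = 4.02e-04). Single cells with both programmes and a mixture of 2 kinds of cell cannot be told apart in such arrays. Pericytes here are the cells sorted under that label.

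Smooth muscle genes were mixed. Of 23 listed, 20 are on the array and 16 were tested, with 6 higher, 2 lower and 8 not passing, and a median of 0.28. The tropomyosin Tpm2 was 6.21-fold higher in pericytes, the myosin light chain Myl9 3.93-fold, the smooth muscle myosin heavy chain Myh11 2.35-fold and caldesmon (Cald1) 2.05-fold. Smoothelin (Smtn) and the LIM protein Csrp1 were lower at -1.03 and -0.83. The 4 probes for smooth muscle actin (Acta2) gave different answers. The probe with the highest mean read 9.90, 8.61, 9.54 and 10.20 in the pericyte arrays and 9.21 ± 0.12 in the endothelial arrays (SD, n = 4), and its difference of 0.35 lay short of the threshold (limma, adjusted p = 0.286). Without pericyte replicate 2 the difference was 0.67 and passed (limma, adjusted p = 0.00594). Another probe read 10.63, 9.03, 9.82 and 10.94 against 7.0 ± 0.20, a difference of 3.11 that passed (limma, adjusted p over all kept probes = 1.24e-07). The remaining probes differed by 1.50, which passed, and 0.51, which did not. On all 4 probes pericyte replicate 2 was lowest and replicate 4 highest.

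The 4 pericyte arrays were not alike in these programmes. The mean over the tested pericyte markers was 8.92, 8.32, 8.39 and 9.18 in replicates 1 to 4, and over smooth muscle genes it was 8.61, 7.86, 8.21 and 8.85. Fibroblast markers ran the other way, at 9.42, 9.75, 9.62 and 9.16. The following counts use a split of the arrays that was chosen after these values were seen, and describe it only. Replicates 1 and 4 both lay above 2 and 3 for 15 of 22 pericyte markers and 15 of 16 smooth muscle genes, against 25.5% of all tested genes. Replicates 2 and 3 both lay above 1 and 4 for 13 of 23 fibroblast markers and 9 of 16 interstitial collagens, against 19.2% of all tested genes. Notch3, a receptor of mural cells, read 9.02, 7.65, 7.74 and 9.27 in the pericyte arrays and 6.79, 6.79, 6.87 and 6.93 in the endothelial arrays. Cspg4 followed the same arrays, at 8.86, 7.73, 7.91 and 9.58 against 7.16, 7.44, 7.31 and 7.44, and each of these genes still stood above every endothelial array. The number of pericyte markers past the threshold was 20 whichever single wild-type array was left out, and that of fibroblast markers was 22 to 23.

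Endothelial markers were low in the pericyte sort. Of 36 surface markers 33 are on the array and 31 were tested, with 26 lower, 2 higher and a median of -1.50. Pecam1 read 6.71, 6.80, 6.81 and 6.93 in the pericyte arrays and 10.46, 10.48, 10.75 and 10.66 in the endothelial arrays (log2 difference -3.77, SE 0.10, limma, adjusted p = 6.77e-15), and Cdh5 6.97, 6.90, 6.95 and 6.99 against 10.30, 10.09, 10.22 and 10.18 (log2 difference -3.24, SE 0.07, limma, adjusted p = 1.13e-15). The higher ones were Ly6a, the stem cell antigen Sca-1 that fibroblasts also carry (1.15), and Gpr124, a receptor of brain vessel angiogenesis that pericytes also make (0.96). Ly6a overlapped between the groups, at 10.75, 10.39, 10.55 and 9.66 in the pericyte arrays and 10.14, 8.80, 9.26 and 8.53 in the endothelial arrays. The von Willebrand factor probe (Vwf) read 6.74 to 6.85 in pericytes and 6.86 to 7.20 in endothelial cells and was left out as dim. Of 12 listed lymphatic markers 6 are on the array, and the filter left out Prox1, Ccl21a and Foxc2. Those with a tested probe were Flt4, Nrp2 and Itga9, and all 3 were lower in pericytes, at -1.64, -1.93 and -0.79. Without the filter 3 of the 6 were lower and 1 was higher, with a median of -0.44.

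Transcripts of other cell types were present in some arrays. The mean over 12 mast cell markers, genes of the mast cell granule and its receptors, was 7.05, 7.70, 9.18 and 9.76 in pericyte replicates 1 to 4 and 7.43 to 7.49 in endothelial cells. The mast cell tryptase Tpsab1 read 6.80, 8.97, 10.92 and 11.31 against 6.83, 7.03, 7.40 and 7.02 (log2 difference 2.43, SE 0.76, limma, adjusted p = 0.0178), and carboxypeptidase A3 (Cpa3) 6.80, 7.76, 9.97 and 10.66 against 6.74, 6.82, 6.89 and 6.84 (log2 difference 1.98, SE 0.66, limma, adjusted p = 0.0251). Replicate 1 sat at the floor for both genes and replicates 3 and 4 far above it, so the groups overlapped. Of 20 listed mast cell markers 16 are on the array. Without the filter on low values 6 of these were higher and 1 lower, with a median of 0.64. Of the 12 tested, 7 were higher and 1, the receptor gene Kit, was lower, with a median of 1.62. The count of 8 past the threshold was 2 without pericyte replicate 3, 4 without replicate 4, and 9 without replicate 1 or without replicate 2, and it was 5 without endothelial replicate 1. The tryptase gene Mcpt6 differed by 1.91 and the chymase gene Cma2 by 1.73, and all 4 of these granule genes ceased to pass without pericyte replicate 3 or replicate 4.

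The leukocyte surface phosphatase Ptprc was dim, at 6.72 to 7.22 in pericytes and 6.74 to 6.84 in endothelial cells, and was not tested. The T cell receptor component Cd3e read 7.70, 8.18, 9.0 and 8.76 in the pericyte arrays against 6.72, 6.73, 6.76 and 6.79 (log2 difference 1.66, SE 0.28, limma, adjusted p = 1.26e-04) and the chemokine Ccl5, made by lymphocytes and other cells, 8.76, 7.99, 9.10 and 8.23 against 6.94, 6.91, 7.09 and 7.11. They were the 2 of 3 tested lymphocyte markers past the threshold, and the list mean was 7.87, 7.85, 8.44 and 8.02 in pericytes and 6.93 to 7.02 in endothelial cells. The tested members had a median of 1.51. Of 20 listed lymphocyte markers 5 are on the array. Without the filter 2 of these were higher and 0 lower, and the median was 0.06. Of 20 macrophage markers 12 are on the array and 5 were tested, with a mean of 6.86, 7.52, 8.40 and 8.0 in pericytes and 6.99 to 7.50 in endothelial cells. Of these Laptm5, a lysosomal protein of blood cells, read 6.84, 8.32, 9.56 and 9.84 against 7.16, 7.51, 7.36 and 7.24 (log2 difference 1.32, SE 0.50, limma, adjusted p = 0.0482) and ceased to pass when any 1 wild-type array other than pericyte replicate 1 was left out. The keratinocyte list had 0 of 17 tested members past the threshold, with a median of 0.27 and a mean of 7.0, 6.88, 7.78 and 7.30 on the pericyte arrays. The endothelial arrays had means of 6.85 to 6.90. In 5 of the 17 all pericyte arrays lay above all endothelial arrays, against 16.3% of all genes. The estimate of spread is shared with the knockout pericyte arrays, where the list mean ran from 7.41 to 9.54. Krt5, a basal keratin, read 7.45, 6.99, 9.12 and 8.07 against 6.86, 6.72, 6.84 and 6.96 (log2 difference 1.06, SE 0.49, limma, adjusted p = 0.101), and it passed without pericyte replicate 2 (limma, adjusted p = 0.0461). Red cell transcripts were on the endothelial side, where the haemoglobin gene Hbb-b1 read 8.33, 9.20, 8.25 and 8.87 and the pericyte arrays 6.85, 7.0, 6.88 and 6.94 (log2 difference -1.74, SE 0.33, limma, adjusted p = 3.37e-04). The part of these other transcripts in the results that follow was not tested.

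**Figure D2:**
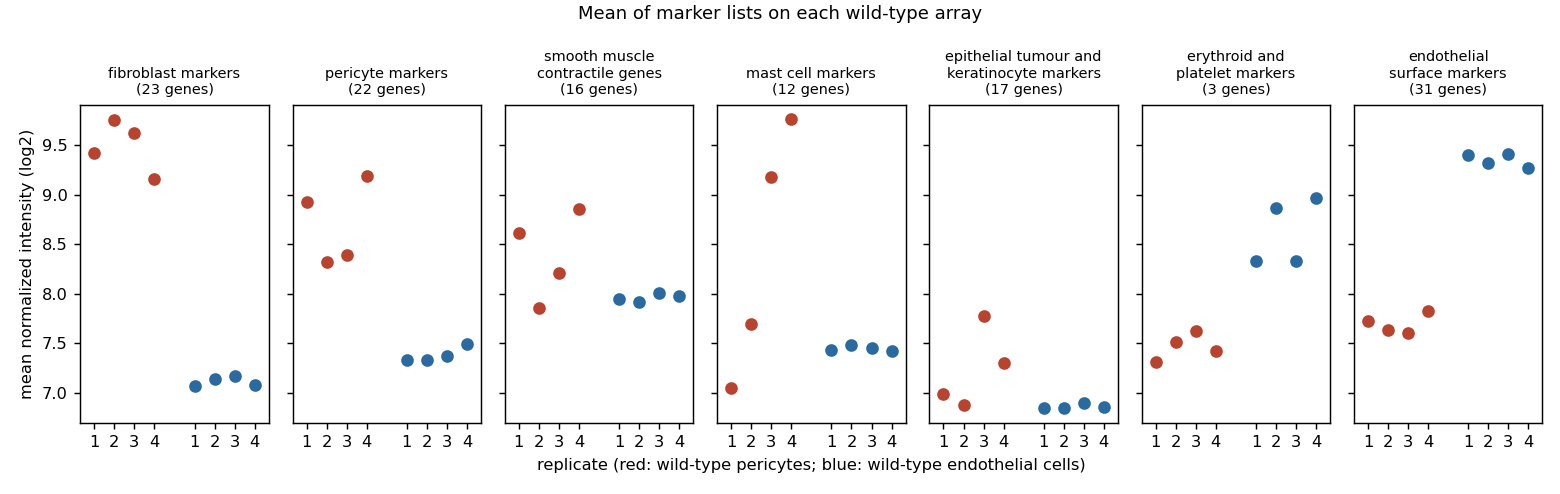
Mean normalized log2 intensity (vertical axis) of the tested members of 7 marker lists on each wild-type array, with pericyte replicates 1 to 4 in red and endothelial replicates 1 to 4 in blue. Pericyte and smooth muscle means were highest in pericyte replicates 1 and 4, the fibroblast mean in 2 and 3, and the mast cell mean ran from 7.05 to 9.76 over the pericyte arrays while the endothelial arrays lay within 7.43 to 7.49.

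Matrix genes made up the broadest block on the pericyte side. Of 22 interstitial collagen chains 21 are on the array and 16 were tested, with 15 higher, 0 lower and a median of 2.69. All 6 tested small leucine-rich proteoglycans, which bind collagen fibrils, were higher, with Aspn differing by 1.43. Of 27 tested genes of elastic fibres and crosslinking 23 were higher and 0 lower, with fibulin 1 (Fbln1) at 3.71, the anti-angiogenic matricellular gene Thbs2 at 3.70 and fibrillin 1 (Fbn1) at 3.46. Enzymes that cut and fold procollagen followed, with 17 of 21 higher and 1 lower. Among them were the N-proteinase Adamts2 (3.13), the C-proteinase Bmp1 (1.63), its enhancer Pcolce (1.55) and the reticulum protein Rcn3 (1.44), while Tll1, a relative of Bmp1, was lower (-0.76). With no filter on low values the counts were 15 of 21 collagens, 7 of 9 proteoglycans, 23 of 29 elastic fibre genes and 17 of 21 processing enzymes.

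Basement membrane genes were shared out between the populations. Of 18 tested, 4 were higher and 6 lower in pericytes, 8 did not pass and the median was -0.08. Together 55.6% passed, against 36.2% of all genes, of which 17.1% were higher and 19.1% lower. The laminin chains Lama2 and Lamb2 were higher by 1.33 and 1.08. Nidogen 2 (Nid2) was lower at -1.84, the laminin chain Lama5 at -1.15 and peroxidasin (Pxdn), which crosslinks collagen IV, at -1.11. Nid2 read 8.42, 8.49, 8.43 and 8.45 in the pericyte arrays and 10.24, 10.48, 10.19 and 10.23 in the endothelial arrays, with all endothelial arrays above all pericyte arrays.

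Matrix-degrading enzymes and their inhibitors were more often higher than lower in pericytes, with 14 of 25 tested genes higher, 4 lower and a median of 0.51. Without the filter 14 of the 30 on the array were higher and 4 lower, and the median was 0.18. Stromelysin (Mmp3) was 14.9-fold higher, gelatinase A (Mmp2) 9.82-fold and the inhibitor Timp1 7.52-fold. The membrane-bound Mmp15 and Adam15 were lower at -2.48 and -1.39, although not every Adam15 probe passed. Proteoglycans of the cell surface and pericellular coat were higher in 10 of 13 tested genes, led by glypican 1 (Gpc1, 3.35), the hyaluronan synthase Has1 (3.33), versican (Vcan, 2.75) and syndecan 1 (Sdc1, 2.55). Syndecan 3 (Sdc3) and glypican 4 (Gpc4) were lower at -1.35 and -0.66. Tested integrins went mainly the other way, with 6 of 10 lower, 2 higher and a median of -0.50. This lean was weaker without the filter on low values. There 6 of the 20 on the array were lower and 3 higher, and the median was 0.03. The laminin-binding Itga6 and Itga3 were lower at -1.81 and -1.41 and the collagen receptor Itga2 at -0.82. The vitronectin receptor chains Itgb5 and Itgav were higher by 1.67 and 0.74.

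**Figure D3:**
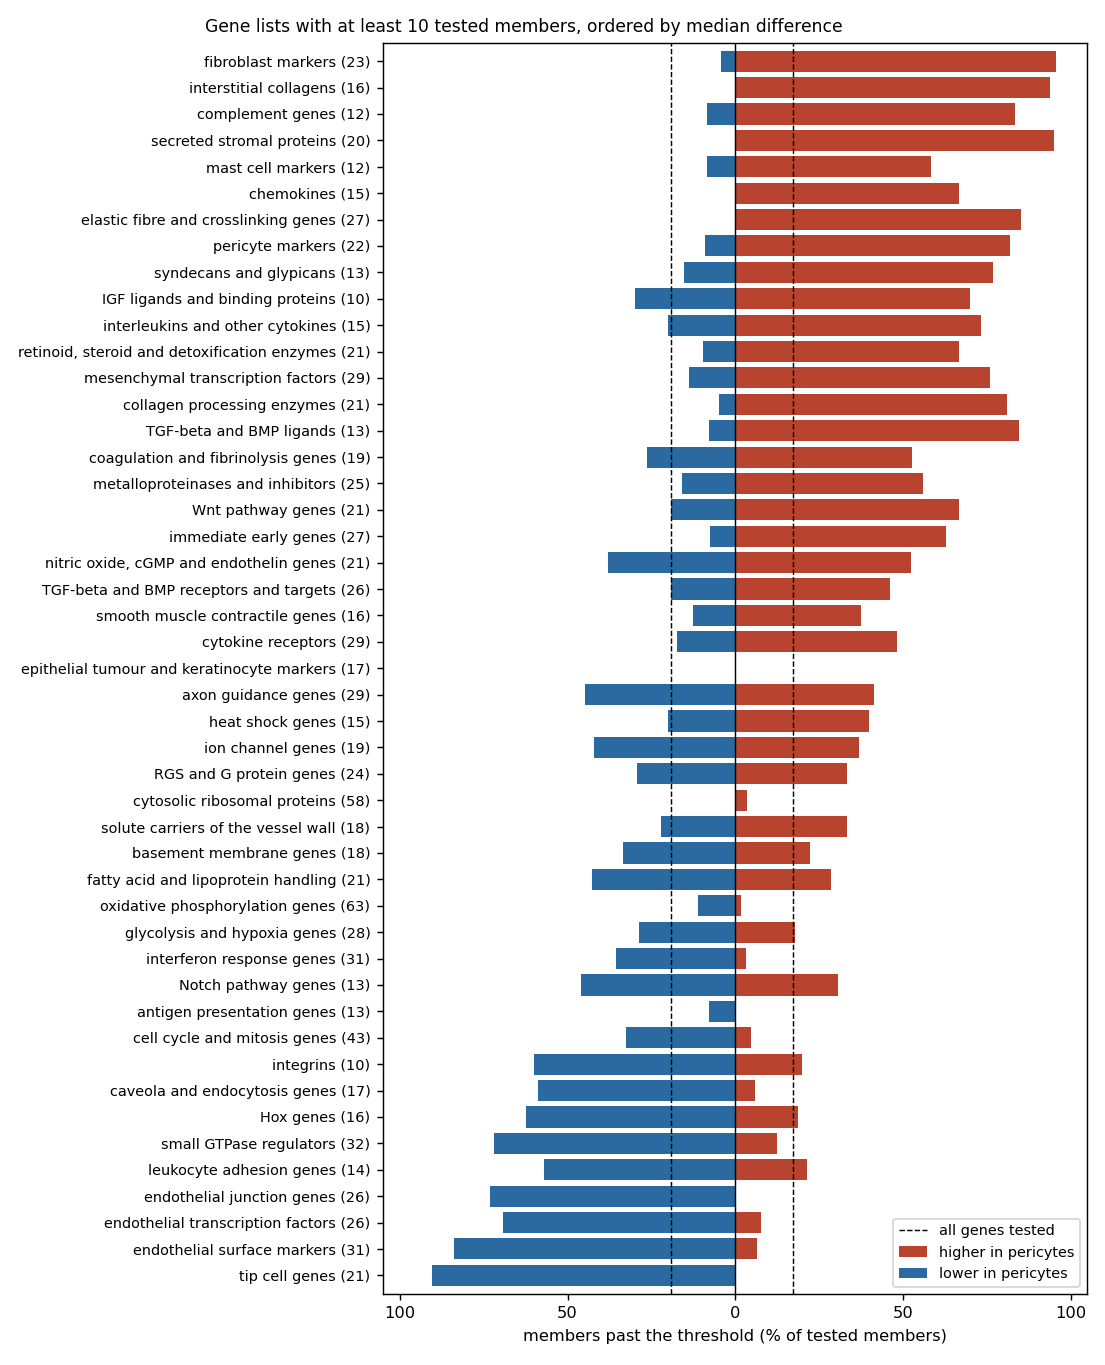
Share of tested members past the threshold (horizontal axis, percent) that were higher (red, to the right) or lower (blue, to the left) in wild-type pericytes, for gene lists with at least 10 tested members, given in brackets and ordered by the list's median difference. Dashed lines mark the shares over all 10426 genes, 17.1% higher and 19.1% lower, and fibroblast markers and tip cell genes stood at the ends.

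Junction genes set the endothelium apart. Of 26 tested genes of endothelial junctions 19 were lower in pericytes, 0 were higher and the median was -1.01. After Cldn5 and Cdh5 came the VE-cadherin phosphatase Ptprb, which read 6.77, 6.84, 6.75 and 6.85 in the pericyte arrays and 9.53, 9.46, 9.44 and 9.61 in the endothelial arrays, and the adhesion molecule Esam, which stood above the floor in pericytes at 9.11, 8.13, 7.91 and 9.60 against 10.72, 10.62, 10.80 and 10.60. Esam was higher in pericyte replicates 1 and 4 than in 2 and 3. Other cadherins divided, with the mesenchymal Cdh11 and the giant protocadherin Fat1 higher by 1.49 and 2.16, and T-cadherin (Cdh13) and Pcdh1 lower at -2.30 and -1.85. Regulators of small GTPases, which tune junctions and the cytoskeleton, were lower in 23 of 32 tested genes and higher in 4. Arhgef15, an exchange factor of endothelium, was lower at -2.72, the cyclic AMP sensor Rapgef3 (Epac1) at -2.52, Dock9 at -2.04 and Cdc42ep3 at -1.91, while Arhgdib and Rhou were higher by 1.25 and 0.99. Caveola and endocytosis genes were lower in 10 of 17, with the diaphragm protein Plvap, an antigen of fenestrae and caveolae, lower at -2.97, the cavin Sdpr at -2.66 and caveolin 1 (Cav1) at -2.23. Neuronal-type dynamin (Dnm1) was the 1 higher member (1.66).

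Transcription factors followed the same division. Of 26 tested endothelial factors 18 were lower in pericytes and 2 higher, with a median of -1.10. Without the filter 18 of the 31 on the array were lower and 3 higher, and the median was -0.75. Sox17, a factor of arterial endothelium, read 6.71, 6.76, 6.78 and 6.73 in the pericyte arrays and 9.47, 9.68, 9.42 and 9.50 in the endothelial arrays (log2 difference -2.77, SE 0.07, limma, adjusted p = 3.26e-15), and its relative Sox18 was lower at -2.87 and the ETS factor Fli1 at -2.37. Klf4, which endothelium and mesenchyme both use, was higher by 1.06, and the venous factor Nr2f2 by 0.53. Of 29 tested mesenchymal factors 22 were higher and 4 lower, with a median of 0.83. Without the filter 24 of the 38 on the array were higher and 3 lower, and the median was 0.47. Nfatc4 was 7.63-fold higher, Zeb2 6.34-fold and the cartilage factor Sox9 3.13-fold, whereas Zeb1, the relative of Zeb2, was lower (log2 difference -0.78, SE 0.09, limma, adjusted p = 1.16e-06) and the haematopoietic regulator Evi1 as well (-1.48). Zeb2 read 9.63, 9.66, 9.59 and 9.71 against 6.97, 6.80, 7.18 and 6.99 and Zeb1 8.27, 8.34, 8.25 and 8.38 against 9.09, 9.08, 9.01 and 9.17, so the relatives parted the populations in opposite directions with no overlap.

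Hox genes, which record position along the body axis, divided by cluster. Of 37 listed, 23 are on the array and 16 were tested, with 3 higher and 10 lower in pericytes. The 3 higher genes were Hoxc9, Hoxc10 and Hoxc6, which are the 3 tested members of the HoxC cluster. Hoxc9 read 9.66, 9.46, 9.48 and 9.32 in the pericyte arrays and 6.77, 7.11, 6.98 and 6.93 in the endothelial arrays (log2 difference 2.53, SE 0.11, limma, adjusted p = 1.38e-12), and Hoxc10 and Hoxc6 were higher by 2.14 and 1.73, each at the floor in endothelium. The 10 lower genes all lie in the HoxA, HoxB and HoxD clusters, led by Hoxd9, which read 7.15, 7.10, 7.14 and 7.05 against 9.17, 9.14, 9.36 and 9.03 (log2 difference -2.06, SE 0.10, limma, adjusted p = 6.01e-12). The remaining 3 tested genes did not pass. With no filter 3 of 23 were higher and 12 lower. Grouping by cluster was done after the values were seen.

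Among the growth factors that join the 2 populations, the PDGF genes were placed on opposite sides. Pdgfb, the ligand by which endothelium recruits pericytes, was low in pericytes at 6.85, 6.86, 6.80 and 6.76 and higher in endothelial cells at 8.55, 7.92, 8.11 and 8.60 (log2 difference -1.48, SE 0.16, limma, adjusted p = 5.37e-07). Its receptor gene Pdgfrb was on the pericyte side, as were Pdgfra, the receptor-like Pdgfrl (1.28) and the other ligand gene Pdgfa (log2 difference 1.05, SE 0.29, limma, adjusted p = 0.00814). Pdgfa overlapped between the groups, at 9.50, 7.97, 8.60 and 10.09 in the pericyte arrays and 8.13, 7.83, 7.77 and 8.22 in the endothelial arrays, with replicates 1 and 4 the highest pericyte arrays. Of 7 listed genes 6 are on the array and 5 were tested, and all 5 passed.

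The VEGF genes, whose ligands drive endothelial growth, were ordered by ligand and receptor. Vegfa, the main ligand, read 8.68, 8.49, 8.45 and 8.54 in the pericyte arrays and 6.78, 6.81, 6.79 and 6.88 in the endothelial arrays (log2 difference 1.72, SE 0.10, limma, adjusted p = 1.13e-10). The ligands Figf (VEGF-D) and Vegfc were higher in pericytes by 0.70 and 0.42, the latter with overlapping groups and not past the threshold without pericyte replicate 2 or endothelial replicate 2. Placental growth factor (Pgf) was the 1 tested ligand on the endothelial side (log2 difference -1.36, SE 0.15, limma, adjusted p = 7.37e-07). Every tested receptor was lower in pericytes. Kdr, the main signalling receptor, read 6.75, 6.80, 6.76 and 6.92 against 7.31, 7.79, 7.76 and 7.81 (log2 difference -0.86, SE 0.18, limma, adjusted p = 8.76e-04), Flt1 7.37, 6.77, 6.97 and 7.39 against 9.0, 8.62, 8.68 and 8.70, and Flt4, Nrp1 and Nrp2 differed by -1.64, -0.81 and -1.93. Nrp1 was above the floor in pericytes, at 9.10, 8.80, 8.56 and 9.26.

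Angiopoietin 2 (Angpt2), which destabilises vessels, was on the endothelial side with its receptor Tek. Angpt2 read 8.08, 7.55, 7.42 and 8.16 in the pericyte arrays and 10.47, 9.79, 9.32 and 10.53 in the endothelial arrays (log2 difference -2.23, SE 0.23, limma, adjusted p = 2.75e-07), and Tek 7.16, 7.16, 7.20 and 6.92 against 8.86, 8.42, 8.82 and 8.82 (log2 difference -1.62, SE 0.12, limma, adjusted p = 5.59e-09). The orphan relative Tie1 was lower at -1.87. Angiopoietin 1 (Angpt1), the pericyte ligand of Tek in textbook accounts, had 2 dim probes that were left out by the filter and read 6.88 to 7.27 in pericytes and 6.67 to 6.79 in endothelial cells, with no overlap. Angptl2 was higher in pericytes by 1.97, and Angptl4 did not pass (-0.20, 95% interval -0.59 to 0.19).

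Notch receptors lay on both sides, with Notch3 and Notch2 (0.45) higher in pericytes and Notch4 and Notch1 (-0.50) lower. Notch3 and its target Heyl were higher in pericytes by 1.57 and 1.13, and the ligand Jag1 by 0.52. Notch4, the endothelial receptor, read 7.45, 6.91, 7.07 and 7.67 in the pericyte arrays against 10.13, 10.12, 10.22 and 10.40 in the endothelial arrays, and the modifier Mfng, the feedback regulator Nrarp, the tip cell ligand Dll4 and the target Hey1 were lower in pericytes at -1.93, -1.81, -1.24 and -1.17. In all, 4 of 13 tested Notch genes were higher and 6 lower. Notch1, Notch2, Jag1, Dll4 and Hey1 were named after their values were seen.

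**Figure D4:**
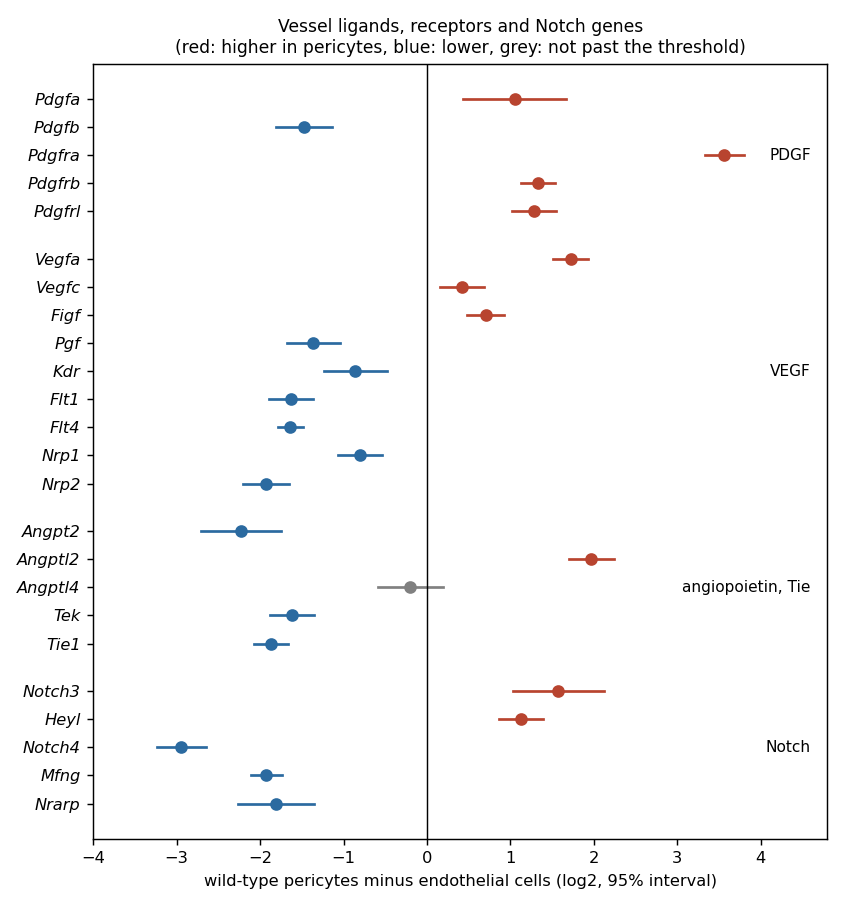
Difference between wild-type pericytes and endothelial cells (horizontal axis, log2, with 95% intervals) for ligands and receptors of the PDGF, VEGF and angiopoietin families and 5 Notch genes, with red for higher in pericytes, blue for lower and grey for not past the threshold. Pdgfb lay at -1.48 and its receptor Pdgfrb at 1.33, and all 5 VEGF receptors and co-receptors were lower while Vegfa lay at 1.72.

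Genes of the endothelial tip cell, the leading cell of a sprout, were lower in pericytes in 19 of 21 tested members, with a median of -1.64, and 0 were higher. Esm1 read 6.83, 6.84, 6.81 and 7.05 in the pericyte arrays and 10.66, 10.38, 10.34 and 10.88 in the endothelial arrays, and Aplnr 6.96, 6.77, 6.89 and 6.90 against 9.91, 9.89, 10.52 and 10.0. Axon guidance genes, which vessels reuse, were divided at 12 higher and 13 lower of 29, together 86.2% against 36.2% of all genes. Slit3, a ligand of the Roundabout family, and the semaphorin Sema4b were higher in pericytes by 2.02 and 1.38. The semaphorin Sema3f, the plexin Plxnd1 and the ephrin receptor Ephb1 were lower at -2.88, -2.14 and -2.20. The arterial ligand Efnb2 and its venous receptor Ephb4, named after their values were seen, were both lower in pericytes, at -1.02 and -1.20.

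Ligands of the other growth factor families lay mostly with the pericytes. Of 13 tested TGF-beta and BMP ligands and their antagonists 11 were higher and 1 lower. Without the filter 13 of the 20 on the array were higher and 2 lower. The activin chain Inhba was 7.41-fold higher, the follistatin-like Fstl1 3.30-fold and the BMP antagonist Nbl1 3.07-fold, while Bmp4 was lower (-0.49). Their receptors and targets were divided, with 12 higher and 5 lower of 26, together 65.4% against 36.2% of all genes. The type I receptors Bmpr1a and Acvr1b and the co-receptor Tgfbr3 were higher by 1.86, 1.34 and 1.36, and Smad1, which carries the BMP signal, and the endothelial co-receptor endoglin (Eng) were lower at -1.64 and -0.87. In the Wnt pathway 14 of 21 tested genes were higher, among them the antagonists Sfrp2 (2.48) and Dkk3 (1.47), the target Wisp1 (1.64) and the ligand Wnt5a, which read 8.87, 7.24, 7.80 and 8.71 in the pericyte arrays and 6.82, 6.84, 6.81 and 6.85 in the endothelial arrays. The receptors Fzd4, which endothelium uses for norrin, and Fzd6 were lower at -0.53 and -0.71. With no filter on low values 16 of the 36 Wnt genes on the array were higher and 4 lower.

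Fibroblast growth factors Fgf10 and Fgf7 and hepatocyte growth factor (Hgf) were higher in pericytes by 2.06, 1.71 and 1.07, and the heparan sulfatase Sulf1, which tunes such ligands, by 2.23. In the EGF family the receptor Egfr, the ligand Ereg and the feedback inhibitor Errfi1 were higher by 1.77, 1.21 and 1.14, whereas the ligand Hbegf was lower at 7.55, 7.61, 7.34 and 8.22 against 9.36, 9.83, 9.19 and 9.65 (log2 difference -1.83, SE 0.28, limma, adjusted p = 3.11e-05). Of 10 tested insulin-like growth factor genes 7 were higher and 3 lower. The carriers Igfbp5 and Igfbp4 and the clearance receptor Igf2r were higher by 2.27, 1.19 and 1.39, and the insulin receptor (Insr) was lower at -0.56. Carriers of the same family stood at opposite ends, with Igfbp3 at -3.88 and Igfbp5 at 2.27.

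Tested chemokines and complement genes lay mostly with the pericytes. Of 15 tested chemokines, chemerin counted among them, 10 were higher, all by at least 2-fold, and 0 were lower, with a median of 1.52. With no filter on low values 11 of the 26 on the array were higher and 0 lower, and the median was 0.29. Cxcl14 read 10.82, 10.69, 10.77 and 10.25 in the pericyte arrays and 6.79, 6.84, 6.78 and 6.75 in the endothelial arrays (log2 difference 3.84, SE 0.10, limma, adjusted p = 4.83e-15), and the monocyte attractant Ccl7 10.27, 10.58, 10.44 and 10.73 against 6.73, 7.83, 7.33 and 7.22. Cxcr4 was on the endothelial side, at 6.95, 6.86, 7.05 and 7.13 in the pericyte arrays and 9.93, 9.81, 9.97 and 10.21 in the endothelial arrays (log2 difference -2.98, SE 0.11, limma, adjusted p = 2.54e-13), while its ligand gene Cxcl12, named after its values were seen, was on the pericyte side (9.95 ± 0.62 against 7.02 ± 0.09, SD, n = 4 each; log2 difference 2.93, SE 0.21, limma, adjusted p = 2.04e-09). The chemerin receptor Cmklr1 was higher in pericytes (0.53), as was chemerin itself. Of 12 tested complement genes 10 were higher and 1 lower, with a median of 2.11. Without the filter 10 of the 17 on the array were higher and 1 lower, and the median was 1.32. C3, the central component, read 10.39, 10.41, 10.35 and 9.15 against 6.83, 6.85, 6.96 and 6.75. C4a and C4b were higher by 3.20 and 2.75 and the C1 inhibitor Serping1 by 3.45, and the surface protector Cd59a was lower at -0.58. For C3 and C4a pericyte replicate 4 stood well below the other 3.

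Cytokines were higher in 11 of 15 tested genes and lower in 3. With no filter on low values 14 of the 25 on the array were higher and 3 lower. Osteopontin (Spp1) was 10.9-fold higher, the alarmin Il33 5.40-fold, the macrophage growth factor Csf1 3.40-fold and Il6 3.35-fold, whereas Il16 and the stem cell factor Kitl were lower at -1.04 and -0.83. Kit, the receptor of Kitl, was also lower in pericytes, at 6.76, 6.77, 7.62 and 8.87 against 9.24, 8.82, 9.02 and 9.43 (log2 difference -1.62, SE 0.37, limma, adjusted p = 0.00171). Pericyte replicate 4, where mast cell genes were highest, carried the highest pericyte value of Kit. Cytokine receptors, a list that also holds interferon and TNF-family receptors, were higher in 14 of 29 tested genes and lower in 5. Together 65.5% passed, against 36.2% of all genes. Those higher included Il1r1 (2.30), Il17ra (2.06), Il11ra1 (1.83) and the Il33 receptor Il1rl1 (1.70), which mast cells also make, while the shared beta chain Csf2rb was lower (-0.83).

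Leukocyte adhesion genes lay with the endothelium in 8 of 14 tested members. Icam2 and the selectin ligand scaffold podocalyxin (Podxl) were lower in pericytes at -2.34 and -1.50, and P-selectin (Selp), named after its values were seen, at -1.11. The amine oxidase Aoc3, known as vascular adhesion protein 1, was higher in pericytes at 10.87, 10.46, 10.27 and 10.97 against 6.96, 7.11, 7.15 and 6.96 (log2 difference 3.59, SE 0.15, limma, adjusted p = 1.21e-12), and the hyaluronan receptor Cd44 by 1.35, although not every Cd44 probe passed. Of 31 tested interferon response genes 11 were lower and 1 higher, together 38.7% against 36.2% of all genes, with the antiviral genes Rsad2, Ifi44, Ifit2 and Gbp3 lower at -1.47, -1.18, -1.04 and -0.94. In antigen presentation 1 of 13 passed, the class I gene H2-Q7, lower at -0.42, and not on every probe.

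Clotting and fibrinolysis genes were higher in pericytes in 10 of 19 tested members and lower in 5, with a median of 0.57, and by 2-fold or more in 6 and 1. Together 78.9% passed, against 36.2% of all genes. The plasminogen activator Plat was higher in pericytes (1.73), the thrombin receptor F2rl3 was lower at 7.18, 6.87, 6.88 and 7.12 against 9.11, 9.0, 9.14 and 9.11, and the endothelial protein C receptor Procr was lower at -0.83. Genes that set vessel tone also lay on both sides, with 11 of 21 higher and 8 lower, together 90.5% against 36.2% of all genes. Ednra and Gucy1a3, described above, and the angiotensin-converting enzyme Ace (1.34) were higher in pericytes. The adrenomedullin receptor partner Ramp2, the endothelin-converting enzyme Ece1 and adrenomedullin (Adm) were lower at -2.21, -1.32 and -1.10, and the nitric oxide synthase Nos3 and endothelin 1 (Edn1), named after their values were seen, at -0.99 and -1.17. Of 19 prostaglandin genes on the array 7 were tested, with 6 higher in pericytes, 0 lower and a median of 1.17. Among them were the synthases Ptgs2 (2.14), Ptges (1.33) and Ptgis (1.17) and the prostacyclin receptor Ptgir (1.85). With no filter on low values 8 of the 19 were higher and 1 lower, and the median was 0.15.

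Lipid handling genes lay on both sides, with 6 of 21 tested higher in pericytes and 9 lower, together 71.4% against 36.2% of all genes. Lipoprotein lipase (Lpl) read 10.56, 11.08, 11.13 and 10.47 in the pericyte arrays and 6.77, 6.81, 6.78 and 6.73 in the endothelial arrays (log2 difference 4.04, SE 0.12, limma, adjusted p = 1.99e-14). Gpihbp1, the endothelial anchor that holds this lipase, read 6.80, 6.80, 6.77 and 6.89 and 10.39, 10.49, 10.59 and 10.23 (log2 difference -3.61, SE 0.13, limma, adjusted p = 1.20e-13), with each gene at the floor in the other population. The fatty acid transporter Cd36 and carrier Fabp4 were lower in pericytes at -2.63 and -2.21, as was their regulator Pparg at -0.89, and the lipoprotein receptor Lrp1 was higher by 3.05. Fabp4 and Pparg are also adipocyte markers, and the other members of that list were not tested. Enzymes of steroid, retinoid and redox metabolism were higher in 14 of 21 tested genes, among them glutathione peroxidase 3 (Gpx3, 3.40), the oxysterol hydroxylase Cyp7b1 (2.73), the glucocorticoid activator Hsd11b1 (2.18) and metallothionein 1 (Mt1, 2.08). With no filter on low values 18 of the 36 enzyme genes on the array were higher and 1 lower.

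Of 19 tested ion channel genes 7 were higher and 8 lower, and of 24 genes of RGS and G proteins 8 were higher and 7 lower. In all, 78.9% and 62.5% of these lists passed, against 36.2% of all genes. The potassium channel subunit Kcne4 and the calcium channel subunit Cacna2d1 were higher in pericytes by 3.11 and 1.98, and Aqp1 and the inward rectifier Kcnj2 were lower at -3.11 and -2.34. The sphingosine 1-phosphate receptor gene Edg5 was higher by 2.64, and the lysophosphatidic acid receptor gene P2ry5 and the G protein subunit Gng2 were lower at -1.76 and -1.64. Transporters included the taurine carrier Slc6a6 (1.90) and the glucose transporter Slc2a3 (1.08) on the pericyte side, and the scaffold Slc9a3r2 (-1.34) and glutamate transporter Slc1a1 (-1.0) on the other.

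Immediate early genes, which respond within minutes to growth factors, were higher in pericytes in 17 of 27 tested members and lower in 2, with a median of 0.42 and Egr2 and Egr3 at 2.79 and 1.83. The list mean was 9.38 to 9.74 in the pericyte arrays and 8.79 to 9.13 in the endothelial arrays. Heat shock genes had 6 higher and 3 lower of 15, with Dnajb1 at 0.54 and Hspb1 at -0.81. Cell cycle genes were lower in 14 of 43 and higher in 2, together 37.2% against 36.2% of all genes, with cyclin D1 (Ccnd1) at 9.68, 8.33, 8.89 and 10.27 against 11.12, 10.35, 10.71 and 11.01 (log2 difference -1.51, SE 0.30, limma, adjusted p = 5.05e-04) and the mitotic gene Birc5 lower at -0.80. This list depended on single arrays: its mean was 7.70, 7.48, 7.50 and 8.02 in the pericyte arrays against 7.95 to 8.03 in endothelium, and the number past the threshold, 16, became 31 without pericyte replicate 4 and 8 without replicate 2. It was 10 without endothelial replicate 3. Among genes of glycolysis and hypoxia 5 of 28 were higher and 8 lower, together 46.4%, with neuronal enolase (Eno2) at 1.26 and the hypoxia-induced Ankrd37 at -1.11.

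Basic machinery differed little between the populations. Of 58 tested cytosolic ribosomal protein genes 2 passed, both higher in pericytes, with a median of 0.02. Of 63 oxidative phosphorylation genes 7 were lower and 1 higher, with a median of -0.09, and the complex I genes Ndufa8 and Ndufs8 were lower at -0.81 and -0.58. Both shares lie below the 36.2% of all genes. Among the 5 genes with the highest mean on the wild-type arrays whose 95% interval lay within 0.25 of 0 was the polyubiquitin gene Ubb, at 11.59, 11.84, 11.67 and 11.68 in the pericyte arrays and 11.67, 11.91, 11.60 and 11.67 in the endothelial arrays (95% interval -0.21 to 0.18). The other 4 were mtDNA_ND6, which encodes a mitochondrial complex I subunit (-0.22 to 0.20), and 3 transcripts with no established name.

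The same comparison in endosialin-knockout hosts rests on 8 other arrays. There 3743 genes (35.9%) passed. Of the 920 genes that differed by at least 2-fold in wild type, 918 had the same sign in the knockout and 916 passed there in the same direction (limma, adjusted p under 0.05). Col3a1 stood at 4.77 there, Serpine2 at 4.06, Pdgfrb at 1.14, Vegfa at 1.41, Cldn5 at -4.06, Robo4 at -4.14 and Hoxc9 at 2.36. The test of the difference between the genotypes' contrasts called 2 of 10426 genes (0.0192%). Cd248, the deleted gene, was one: the knockout arrays read 7.21, 7.10, 7.09 and 6.96 in pericytes and 7.44, 7.36, 7.04 and 7.23 in endothelial cells, so its cell type difference was -0.18 there against 3.94 in wild type (difference 4.12, SE 0.17, limma, adjusted p = 6.11e-11). The other was LOC100042514, a transcript with no established name, which read 6.91, 6.87, 7.75 and 6.90 in wild-type pericytes and 8.25, 8.59, 8.64 and 8.37 in knockout pericytes, with endothelial arrays at 6.80 to 6.93 in both genotypes (difference -1.38, SE 0.21, limma, adjusted p = 0.0250). Leaving out any 1 array other than wild-type pericyte replicate 3 or knockout pericyte replicate 1 left Cd248 as the single call, and without knockout pericyte replicate 1 there were 53 calls. Krt5 differed by 1.06 in wild type and 4.24 in the knockout, and the test of that change did not pass (difference -3.18, SE 0.69, limma, adjusted p = 0.483). Unadjusted, 390 genes had a p under 0.05 in this test.

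**Figure D5:**
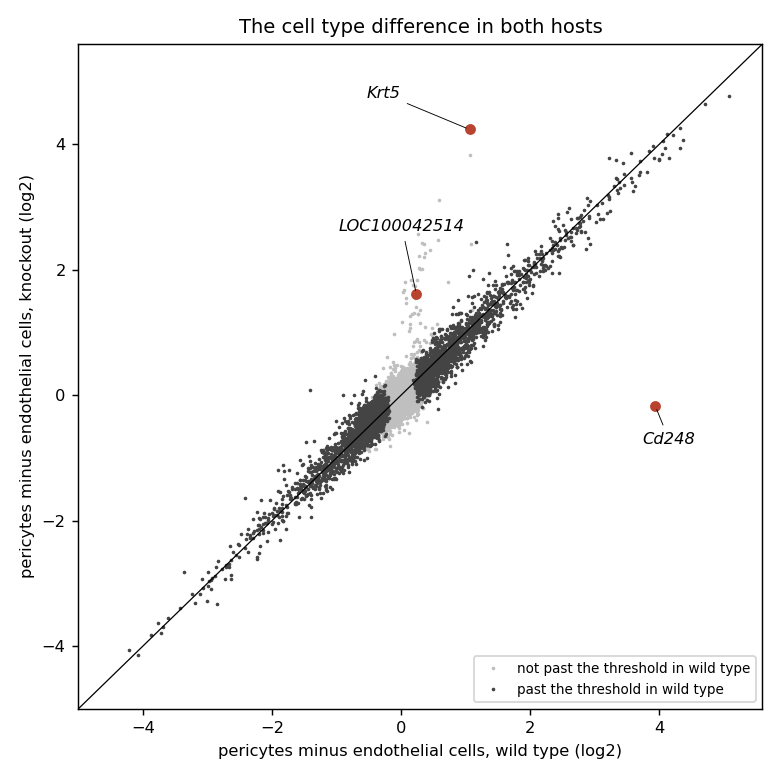
Difference between pericytes and endothelial cells in wild-type hosts (horizontal axis, log2) and in endosialin-knockout hosts (vertical axis, log2) for each of the 10426 tested genes, with genes past the threshold in wild type in dark grey and the line of equality. Points followed the line, Cd248 lay at 3.94 and -0.18, and Krt5 and LOC100042514 lay above it.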

How the data were processed

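Sorted pericytes and endothelial cells gave RNA that was amplified with a whole-transcriptome kit (Ovation Pico WTA System V2), and each Illumina MouseWG-6 v2.0 array received 1.6 µg of it, per the labels' protocols. The authors deposited normalized log2 intensities for 24040 probes on 16 arrays, 4 in each of 4 groups. GenomeStudio and lumi are named in the submitters' processing notes, but no source used here gives their versions, the transform, the background correction or the normalization. The repository's copy of the log2 values, as deposited, differed from this table by at most 5.00e-09. Probe names are those of the deposited table and can be old. Current names are S1pr2 for Edg5, Mecom for Evi1, Vegfd for Figf, Adgra2 for Gpr124, Gucy1a1 for Gucy1a3, Tpsb2 for Mcpt6, Lpar6 for P2ry5, Cavin2 for Sdpr and Ccn4 for Wisp1.

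A probe was kept if it exceeded its array's median on at least 4 of the 16 arrays, which left 14632 probes, and each gene was read from its kept probe with the highest mean (10426 genes). The filter admits a gene that is high in only 1 group: 1358 genes passed on pericyte arrays with fewer than 4 endothelial arrays above the median, and 1258 the reverse. Counts with no filter are therefore given for some lists, and the other list counts rest on this filter. A group-means model over all 16 arrays was fitted with limma 3.58.1 in R 4.3.3, with Benjamini-Hochberg adjustment over all tested genes and a threshold of 0.05. The difference between the genotypes' contrasts was tested in the same fit. Errors are standard errors of the fit or SDs of 4 arrays. Of 2904 genes with several kept probes, 1407 had a probe past the threshold, 789 had all of them past it in the same direction and 12 had probes past it in opposite directions. The number of arrays limits the precision, and array depth has no count. In data simulated for the wild-type contrast with independent normal noise, 67 of 10426 genes were changed at each size and the rest had no difference. Recovery was 61.2% at a log2 difference of 0.5, 97.0% at 1 and 100% at 2, with 15 unchanged genes called. In the real contrast 3772 genes passed, which makes the adjusted threshold less strict than in the simulation, so these shares do not carry over directly.

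Genes were named by a rule: the sort markers, the 15 largest differences in each direction among genes that passed without overlap, up to 4 members of each list with up to 2 of the opposite direction, all PDGF, VEGF and angiopoietin genes, genes with a genotype difference, and 5 bright genes with intervals near 0. Genes named outside it are marked as such, and a few genes that the rule names are not reported here. The lists and members were chosen with earlier results of these data known. Leukocyte, epithelial and other markers with no row in the table were not analysed here. Alternatives covered the filter, the choice of probe, the samples in the fit, normalization, the variance model, the replicate number as a block, a minimum fold and leaving out each wild-type array.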

Additional observations from a re-analysis of the deposited data

Results flagged for a closer look

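Each group of 4 wild-type arrays was looked at for each of the 267 named genes to find an array whose gap to its nearest neighbour took up over 0.829 of the group's range. Of 534 groups 36 held such an array, where chance alone gives about 1 in 20 groups. Values are normalized log2 intensities. Wild-type pericyte replicate 1 stood below the other 3 arrays of its group for Gpr124 (9.32). Wild-type pericyte replicate 2 stood above the other 3 arrays of its group for Has1 (11.20), Plat (9.62) and Ramp2 (7.62). Wild-type pericyte replicate 3 stood below the other 3 arrays of its group for Errfi1 (9.15) and Pmp22 (8.35) and above them for Dnm1 (9.13) and LOC100042514 (7.75). Wild-type pericyte replicate 4 stood below the other 3 arrays of its group for C3 (9.15), C4a (9.44), Col3a1 (11.52), Cxcl12 (9.02), Egr2 (9.79) and Tek (6.92) and above them for Esm1 (7.05) and Kitl (7.84). Wild-type endothelial replicate 1 stood below the other 3 arrays of its group for Kdr (7.31) and Mcpt6 (6.71) and above them for Hsd11b1 (6.79) and Podxl (8.70). Wild-type endothelial replicate 2 stood below the other 3 arrays of its group for Gpr124 (8.22), Gucy1a3 (6.81), Sdpr (9.45) and Tek (8.42) and above them for Birc5 (8.60), Fbn1 (7.22) and Nid2 (10.48). Wild-type endothelial replicate 3 stood above the other 3 arrays of its group for C4a (7.0), Ephb4 (9.78), Lrp1 (7.41) and Tgfbr3 (8.38). Wild-type endothelial replicate 4 stood below the other 3 arrays of its group for Jag1 (7.43) and Plvap (9.98) and above them for Cd248 (7.33), Kcnj8 (8.87) and Plxnd1 (10.37).

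The cell type difference depended on the genotype of the host for Cd248 (4.12 larger in wild type, limma, adjusted p = 6.11e-11), the deleted gene, and for LOC100042514 (difference -1.38, limma, adjusted p = 0.0250). Both were found by the test of the difference itself, and LOC100042514 was one of the genes with an array apart in wild-type pericytes.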

How the results depend on the processing

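Of the 267 named genes, 253 kept their direction and their side of the threshold under every alternative other than a test against a minimum difference, which asked for a log2 difference above 1. The 3772 genes past the threshold became 4268 of 16537 with no filter and 2586 of 5889 with the stricter filter. Under the stricter filter 1184 were higher, 45.8% of its calls, against 1785 in the main fit. That filter tests fewer and brighter genes, and what lowered the count was not tested. Another normalization, centring, probe rule, variance model or set of arrays gave 3352 to 3907. The minimum difference left 458 genes, 265 higher and 193 lower, by its construction. Leaving out single wild-type arrays gave 3392 to 3771 genes, with 1622 to 1754 higher and 1763 to 2017 lower. The share of calls that were higher was 47.3%, and 51.5% after centring on the upper quartile. The genotype difference, with 2 genes, held 1 with no filter, 1 with the minimum difference and 10 with array weights, and 1 to 53 when single arrays were left out, and the cause was not tested. With the replicate number as a block, 3960 genes passed, 1868 higher and 2092 lower, with 2 in the genotype difference, and no named gene changed its call. Same-numbered wild-type arrays deviated together with correlations of 0.43, 0.12, 0.090 and 0.035 across genes, and knockout arrays with 0.22, 0.19, 0.17 and 0.032, all above 0 and 5 of 8 above 0.1. The best match had the same number for 7 of 8 pericyte arrays and 7 of 8 endothelial arrays, a hint of pairing from the data. The labels do not state one and not every pair exceeded 0.1, so the block was kept as an alternative. Calls were lost for Tpsab1, Cpa3, Mcpt6, Cma2, Laptm5 and Vegfc when single arrays were left out, for the first 5 of these also with array weights, and for Cpa3, Cma2 and Laptm5 with the trended, robust variance model. Laptm5 was also lost with no filter, probes averaged, quantile normalization and wild-type arrays alone, and H2-Q7 and Itgav with probes averaged. Acta2 passed with probes averaged (1.37), with array weights (0.56) and without pericyte replicate 2 (0.67), and Krt5 without that replicate and with wild-type arrays alone. Sign changes were limited to genes that had not passed: Ubb was 0.0102 and mtDNA_ND6 0.0160 after centring on the upper quartile, and without single arrays Ubb lay at -0.0651 to 0.0491, mtDNA_ND6 at -0.0789 to 0.0567, Kcnj8 at -0.34 to 0.29 and Abcc9 at -0.0837 to 0.62. Signal over background was not analysed here.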

Other observations

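Among secreted proteins of the stroma, a list kept apart from the matrix lists, 19 of 20 tested genes were higher in wild-type pericytes and 0 lower, with a median of 1.63. Besides Serpine2 and Cpxm1 these included Aebp1, which helps assemble collagen (log2 difference 3.33, SE 0.18, limma, adjusted p = 5.03e-11), and the olfactomedin gene Olfml3 (log2 difference 2.67, SE 0.17, limma, adjusted p = 5.04e-10). Aebp1 read 10.79, 11.12, 10.89 and 10.34 in the pericyte arrays and 7.28, 7.62, 7.54 and 7.40 in the endothelial arrays, with no overlap. Of 3 tested Schwann cell markers, the nerve growth factor receptor Ngfr and the myelin gene Pmp22 were higher in pericytes by 1.73 and 1.26, and Cnp was lower at -0.39. Ngfr read 8.78, 7.87, 8.99 and 8.84 in the pericyte arrays and 6.88, 6.83, 6.89 and 6.93 in the endothelial arrays.

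The keratinocyte list, of which 0 of 17 tested members passed in wild-type hosts, had 15 members past the threshold in the knockout contrast, all higher in pericytes, with a median of 2.01. Its mean was 7.41, 9.54, 9.48 and 9.28 on knockout pericyte replicates 1 to 4. Knockout replicate 1 stood near the wild-type pericyte arrays and the other 3 above them.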
